A study of Homo sapiens with 6 samples.

Results

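The cytosolic ribosomal protein genes are the protein-coding genes whose symbol is RPSA or has the form RPS, RPL or RPLP with a number and, in some, a closing letter. This symbol rule took 84 genes out of 58299 in the table, of which 19850 are protein-coding. They comprised 31 genes of the small subunit, 46 of the large subunit and 7 paralogue-like genes with a symbol ending in L or L1 (RPS27L, RPL3L, RPL7L1, RPL10L, RPL22L1, RPL26L1 and RPL39L). The 77 subunit genes are called the core genes below. The rule used names only, and no measured value. All 77 core genes and 5 of the 7 paralogue-like genes had enough counts to be tested, which gave 82 of 84.

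The libraries came from AC16, a human line derived from adult ventricular heart muscle cells that were fused with transformed fibroblasts. The 3 treated libraries came from cells given 100 nM CDDO-Me for 24 h and then 100 nM doxorubicin for 48 h, 72 h in all, and the 3 control libraries from cells kept in 0.1% DMSO for 72 h. CDDO-Me (bardoxolone methyl) is a triterpenoid that activates the transcription factor NRF2, and doxorubicin is an anthracycline that poisons topoisomerase II. The labels do not state whether CDDO-Me was still present during doxorubicin or that replicates were separate cultures, and both drugs were given to every treated library analysed here. A change can therefore not be assigned to one of the drugs, and a p-value here reflects only how the libraries of a group vary, which may be technical.

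Each cytosolic ribosome holds one copy of most ribosomal proteins, and cells make them in matched amounts by controlling transcription and, more sharply, translation. Their mRNAs carry a 5′ terminal oligopyrimidine (TOP) tract, a run of C and T bases that starts at the cap and through which mTORC1 and the RNA-binding protein LARP1 control translation. Several of these proteins act outside the ribosome, and unassembled RPL5 and RPL11 bind the ubiquitin ligase MDM2. Heart muscle growth is accompanied by ribosome production, and doxorubicin interferes with transcription of ribosomal RNA.

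Start sites are shown first because the TOP tract is the sequence these mRNAs are known for. RefSeq's promoter table for GRCh38.p14 listed a start for 67 of the 84 genes. Of these, 47 (70.1%) had a C at the start base followed by at least 4 bases that were each C or T. The share was 5.14% of all 27305 genes with a listed start and 7.28% of the 10831 tested genes with one. Among core genes the form was found in 46 of 62, 18 of 24 in the small and 28 of 38 in the large subunit. In each line below, 10 bases precede the start base, the strand shown is that of the gene, and capitals mark the run of C and T from the start base. Where several starts are listed, the one with the longest run is given. The first set holds a group of the core genes that carry the results, and RPL22 with its paralogue RPL22L1, the only paralogue-like gene of 5 with a listed start to have the form:
RPS19: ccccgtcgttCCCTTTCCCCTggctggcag
RPS12: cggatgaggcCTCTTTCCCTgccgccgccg
RPS27: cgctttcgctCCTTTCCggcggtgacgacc
RPS16: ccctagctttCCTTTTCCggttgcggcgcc
RPL22: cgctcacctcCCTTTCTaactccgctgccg
RPL22L1: ccgtagcttcCTCTCTgctctcgcggccga
RPLP0: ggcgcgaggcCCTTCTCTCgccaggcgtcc
RPS6: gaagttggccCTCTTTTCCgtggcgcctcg
The RPS19 window was chr19:41860245-41860274 on the plus strand. The RPS12 window was chr6:132814559-132814588 on the plus strand. The RPS27 window was chr1:153990752-153990781 on the plus strand. The RPS16 window was chr19:39435930-39435959 on the minus strand. The RPL22 window was chr1:6199576-6199605 on the minus strand. The RPL22L1 window was chr3:170870176-170870205 on the minus strand. The RPLP0 window was chr12:120201092-120201121 on the minus strand. The RPS6 window was chr9:19380217-19380246 on the minus strand.

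The second set holds members with no C at the listed start base, and so no capitals, among them RPS27L:
RPS27L: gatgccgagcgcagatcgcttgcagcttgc
RPS26: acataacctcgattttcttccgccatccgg
RPS4X: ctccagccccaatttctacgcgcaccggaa
RPL26L1: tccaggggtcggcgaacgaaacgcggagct
The RPS27L window was chr15:63157458-63157487 on the minus strand. The RPS26 window was chr12:56041908-56041937 on the plus strand. The RPS4X window was chrX:72277229-72277258 on the minus strand. The RPL26L1 window was chr5:172958719-172958748 on the plus strand. Within the window from 250 bases before to 50 bases after the start, CCGGAAG on either strand, the core of the site of GABP and other ETS factors, was found in 35.8% of the members with a listed start, against 12.2% of all genes and 21.7% of the genes tested. AAGATGG, part of the YY1 site, was found in 13.4% of members, against 7.11% of all genes and 9.15% of the genes tested. CACGTG, the E-box of MYC and MAX, was found in 7.46% of members, against 8.77% of all and 12.3% of tested genes. TGACNNNGC, the form of the NRF2 binding element, was found in 14.9% of members, against 16.1% of all and 19.4% of tested genes. A match is a description of the letters and not of a bound site.

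The mRNA levels of the ribosomal protein genes moved little in treated cells, with a few exceptions. Of the 82 genes tested, 16 rose and 31 fell by edgeR's quasi-likelihood test at an adjusted p below 0.05, and 35 did not pass. The background in this comparison was high: 63.5% of all 15575 genes tested were called, 32.3% higher and 31.2% lower. The 47 calls are 57.3% of the members tested, somewhat below that background. Of the 13056 protein-coding genes tested, the like set for the members, 68.7% were called. The changes were small. The median log2 change was -0.03 with quartiles of -0.17 and 0.10, against a median of 0.02 with quartiles of -0.33 and 0.44 over all genes tested. RPS27L and RPS19 were the only members called and at least 1.5-fold higher, where 17.6% of all genes were. RPL22L1 was the only one called and at least 1.5-fold lower, where 12 percent of all genes were. The treated and control libraries did not overlap in 41 of the 82 members, against 66.7% of all genes and 71.3% of protein-coding genes tested.

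The split of these small changes depended on how the libraries were scaled, which by default was TMM, the trimmed mean of log ratios between libraries. With upper-quartile scaling 29 members were called higher and 19 lower, so that 60.4% of the calls were higher. With total counts alone 36 were higher and 9 lower, 80% of the calls, against 34.0% with TMM. Total counts moved the median of all genes to 0.15 and that of the core genes to 0.10, and left the core genes at -0.05 relative to all genes on the log2 scale, as with TMM. The call held under TMM, RLE, upper-quartile and total-count scaling and under TMM computed without the members for 15 higher members and 9 lower ones. RLE and TMM without the members left the median of all genes at 0.02. Upper-quartile scaling moved it up to 0.08 and total counts to 0.15. Upward shifts make a higher call easier to keep than a lower one, so the 15 and the 9 cannot be compared. Among the 15 were RPS27L, RPS19, RPS27, RPS12, RPL36A, RPS20, RPL39L, RPL23A, RPL26, RPLP1, RPS4X, RPL12, RPS6 and RPL18. The 9 were RPL22L1, RPS16, RPS2, RPL26L1, RPS21, RPS26, RPL3, RPS7 and RPSA. Against a minimum change of 1.2-fold (glmTreat), 7 members passed, where 40.8% of all genes did. They were RPS27L, RPS19, RPS27 and RPS12, which were higher, and RPL22L1, RPS16 and RPS2, which were lower.

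**Figure D1:**
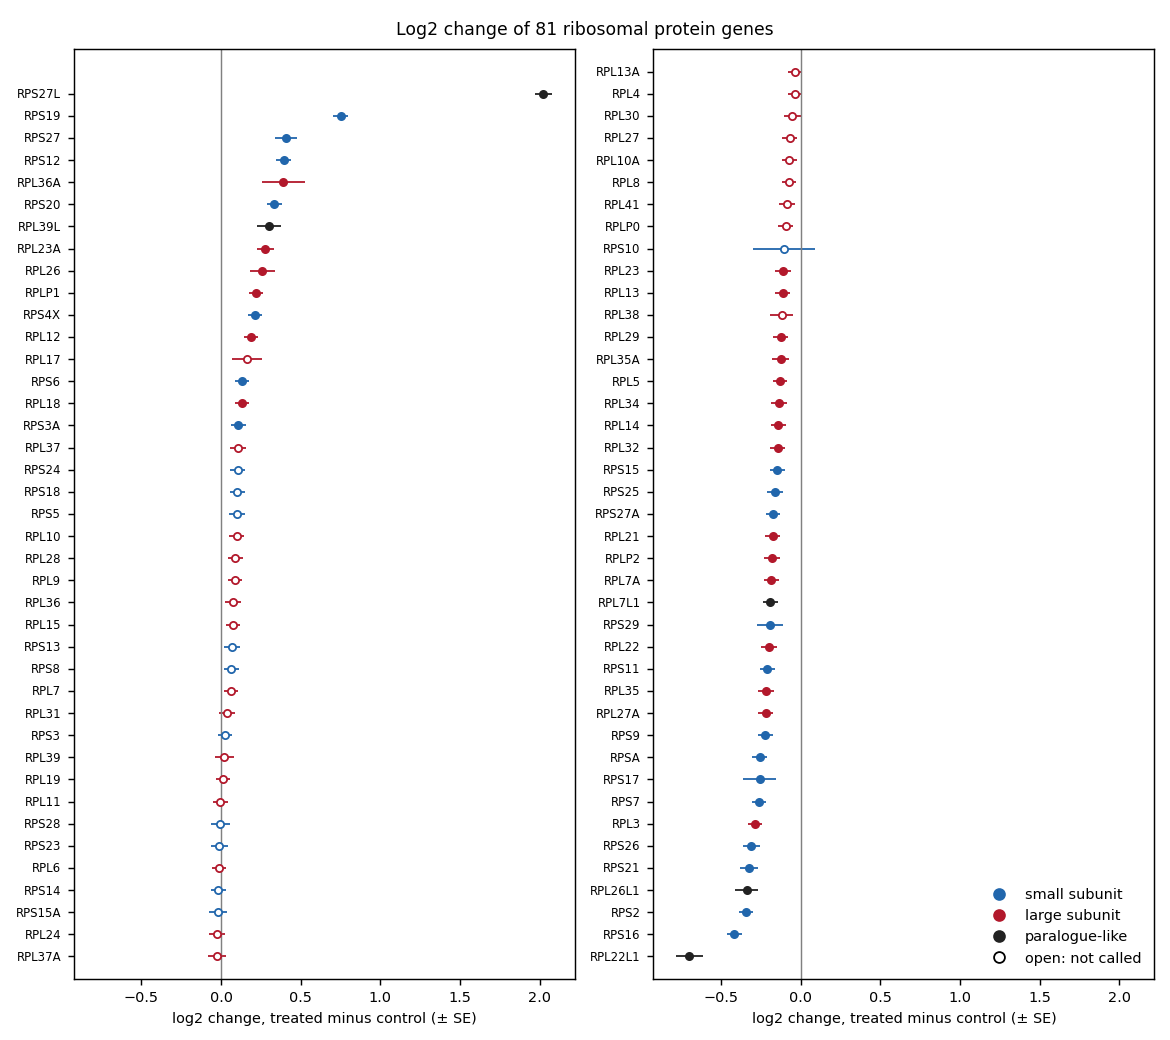
The log2 change (treated minus control, x axis, with its standard error as a bar) is plotted for 81 of the 82 members tested, in order of change, with the higher ones on the left. Colours give the small subunit, large subunit and paralogue-like genes and open circles the 35 genes not called. RPS27L stands apart at 2.02 and RPS19 follows at 0.75, while RPL22L1 is lowest at -0.70.

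**Figure D2:**
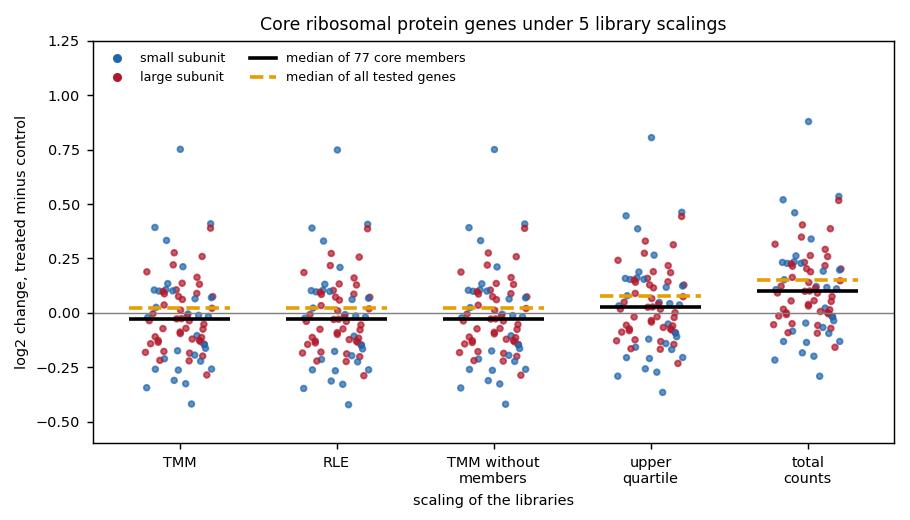
Each point is the log2 change (treated minus control, y axis) of one of the 77 core genes under 5 ways of scaling the libraries (x axis). Black lines give the median of the core genes and dashed lines that of all genes tested, which lie at -0.03 and 0.02 with TMM and at 0.10 and 0.15 with total counts.

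The small subunit genes held the largest changes of the core set. Of 31 genes, 7 were higher and 13 lower with TMM (median log2 change -0.02). These calls were 64.5% of the 31, near the 63.5% of all genes tested. Total counts gave 14 higher and 6 lower and a median of 0.11. RPS19 (ENSG00000105372, chromosome 19, 41859918 to 41872926, plus strand) encodes a protein of the head of the small subunit that is needed to mature its ribosomal RNA and is the gene most often mutated in Diamond-Blackfan anaemia. It had 701, 636 and 620 TMM-normalised CPM (counts scaled to the library size) in treated libraries, against 383, 404 and 375 CPM in control libraries. Every treated library lay far above every control. The log2 change was 0.75 (SE 0.047, adjusted p = 7.21e-22, edgeR), or 1.68-fold, and it stayed between 0.69 and 0.79 when each library was left out in turn.

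RPS12 (ENSG00000112306, chromosome 6, 132814441 to 132817564), a protein of the beak of the small subunit, had 498, 494 and 464 CPM in treated libraries, against 370.3, 385 and 354 CPM in control libraries. The groups were apart, and the log2 change was 0.39 (SE 0.046, adjusted p = 4.51e-11). RPS27 (ENSG00000177954, chromosome 1, 153990755 to 153992155), a zinc finger protein, had 194, 224 and 169 CPM in treated libraries, against 119, 164 and 159 CPM in control libraries. Its groups were apart by a small margin, with the third treated library close to the second control, and the log2 change was 0.41 (SE 0.068, adjusted p = 3.76e-07). RPS20, a protein of the head of the small subunit, had 848, 825 and 752 CPM in treated libraries, against 639.8, 669.6 and 617 CPM in control libraries. All 3 treated libraries were higher, by 0.33 on the log2 scale (SE 0.047, adjusted p = 6.50e-09). RPS6, the substrate of the S6 kinases downstream of mTORC1, differed less. It had 1035, 1008 and 1000.2 CPM in treated libraries, against 932, 938 and 902 CPM in control libraries, a log2 change of 0.13 (SE 0.044, adjusted p = 0.00622) that missed the threshold without the third control (adjusted p = 0.0522).

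RPS16 (ENSG00000105193, chromosome 19, 39433207 to 39435948, minus strand), whose tail reaches the tRNA in the peptidyl site, had the largest decrease of a core gene. It had 271, 257 and 247 CPM in treated libraries, against 352, 337 and 347 CPM in control libraries. The groups were well separated and the log2 change was -0.42 (SE 0.047, adjusted p = 8.32e-12). RPS2 (ENSG00000140988, chromosome 16, 1962052 to 1964860, minus strand), which lines the mRNA entry channel, had 1477, 1490.4 and 1451 CPM in treated libraries, against 1969.7, 1914 and 1726 CPM in control libraries. It was lower in all 3 treated libraries, by a log2 change of -0.34 (SE 0.046, adjusted p = 1.45e-09), and 25.6% of its exon bases also lie in exons of another annotated gene. RPS21 was lower by a log2 change of -0.33 (SE 0.055), at 143 ± 9.71 CPM in treated and 179.7 ± 17.6 CPM in control libraries (SD, n = 3 each). RPS26, which contacts the mRNA upstream of the start codon and is another Diamond-Blackfan anaemia gene, was at 96.0 ± 6.99 CPM in treated and 119 ± 5.95 CPM in control libraries, a log2 change of -0.31 (SE 0.055). RPSA, also known as the laminin receptor precursor, was at 887 ± 24.6 CPM in treated and 1061 ± 52.8 CPM in control libraries, a log2 change of -0.26 (SE 0.045). RPS3, of the mRNA entry channel, had a log2 difference of 0.03 (SE 0.046) and RPS14, the gene lost in the 5q- syndrome, one of -0.02 (SE 0.046), and neither passed the test. With total counts both were called higher, at 0.15 for RPS3 and 0.11 for RPS14.

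Of the 46 large subunit genes, 7 were higher and 15 lower with TMM and 24 did not pass (median log2 change -0.04). The calls were 47.8% of the 46, below the 63.5% of all genes tested. With total counts 20 were higher and 1 was lower, and the median was 0.09. The largest increase was that of RPL36A, a protein near the exit site of the tRNA, which had only 11.2, 9.84 and 8.54 CPM in treated libraries, against 6.32, 8.40 and 7.85 CPM in control libraries. Its groups were apart by a narrow margin, and its log2 change of 0.39 (SE 0.14, adjusted p = 0.0102) lost its call without the first treated library (adjusted p = 0.0969) and without the first control (adjusted p = 0.0923). RPL23A, which docks the signal recognition particle at the tunnel exit, had 152, 134 and 136 CPM in treated libraries, against 119, 112 and 117 CPM in control libraries. It was higher in all 3, by 0.28 on the log2 scale (SE 0.053, adjusted p = 7.51e-06), and 23.7% of the counts of RPL23A and its named pseudogenes lay in the pseudogenes. RPL3, which reaches the peptidyl transferase centre, had 888, 915 and 850.2 CPM in treated libraries, against 1113, 1067 and 1054 CPM in control libraries. Its groups were apart, and its log2 change of -0.29 (SE 0.045, adjusted p = 1.01e-07) was the largest decrease of the large subunit.

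The acidic stalk, which recruits the GTPase translation factors, was uneven. RPLP1 had 526, 509 and 499 CPM in treated libraries, against 458, 434 and 425 CPM in control libraries, and rose by 0.22 on the log2 scale (SE 0.046). Its partner RPLP2 had 138, 145 and 137 CPM in treated libraries, against 161, 165 and 151 CPM in control libraries, a log2 change of -0.18 (SE 0.051, adjusted p = 0.00144). RPLP2 was not called with total counts. RPLP0, the base of the stalk, had a log2 difference of -0.10 (SE 0.045, adjusted p = 0.0590) and did not pass. The groups were apart for RPLP1 and RPLP2 and overlapped for RPLP0.

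RPL5, RPL11 and RPL23 are large subunit proteins known to bind MDM2. RPL5 had 559.8, 582 and 572 CPM in treated libraries, against 606, 648 and 625 CPM in control libraries, a log2 change of -0.13 (SE 0.045, adjusted p = 0.00862) that was not called with total counts. RPL11 had 401, 433 and 379.9 CPM in treated libraries, against 395, 419.6 and 403 CPM in control libraries. Its groups overlapped, and the log2 difference of 0.00 (SE 0.047, adjusted p = 0.944) did not pass, although total counts gave 0.12 with a call. RPL23 was at 320.3 ± 25.0 CPM in treated and 346 ± 20.6 CPM in control libraries, with overlapping groups, and was called lower at an adjusted p of 0.0497, close to the threshold, a call lost without the third treated library (adjusted p = 0.493) or the second control (adjusted p = 0.227). In the same libraries MDM2 itself had 842, 849.9 and 776 CPM in treated libraries, against 71.7, 73.3 and 79.6 CPM in control libraries, a log2 change of 3.46 (SE 0.053). RPL13A, the component released to silence inflammatory mRNAs, and RPL41, the shortest ribosomal protein, had log2 differences of -0.04 (SE 0.045) and -0.09 (SE 0.049) and did not pass.

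**Figure D3:**
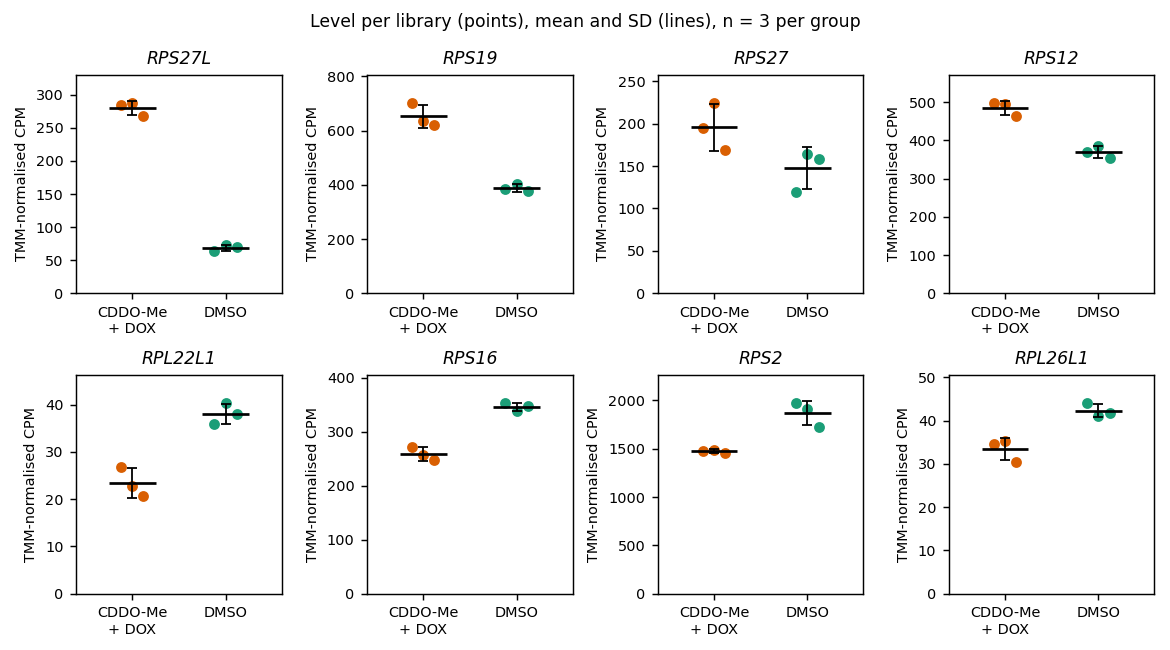
TMM-normalised CPM (y axis, from 0) is plotted for each library of 8 members, with treated libraries on the left of each panel and DMSO controls on the right, and with the mean and SD of 3 libraries as lines. The treated points of RPS27L, RPS19, RPS27 and RPS12 lie above all control points, and those of RPL22L1, RPS16, RPS2 and RPL26L1 below them.

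All 5 paralogue-like genes that could be tested were called, 2 higher and 3 lower, where 63.5% of all genes tested were called. Their groups did not overlap, which held for 66.7% of all genes tested. The log2 changes of the 5 ran from -0.70 to 2.02, against -0.42 to 0.75 among the core genes. Of the 5, only RPS27L and RPL22L1 passed against a minimum change of 1.2-fold. RPS27L (ENSG00000185088, chromosome 15, 63125872 to 63158021, minus strand) encodes a near copy of RPS27. It had 284, 287 and 268 CPM in treated libraries, against 63.4, 72.6 and 70.7 CPM in control libraries. The lowest treated library was more than 3 times the highest control, and the log2 change was 2.02 (SE 0.054, adjusted p = 3.29e-41, edgeR), or 4.06-fold. CDKN1A, an inhibitor of the cell cycle, and MDM2 had log2 changes of 4.30 (SE 0.053) and 3.46 in the same fit. Within each library, RPS27L counts were 1.46, 1.28 and 1.59 times those of RPS27 in treated libraries, against 0.531, 0.442 and 0.445 times in control libraries. RPS27L thus gave fewer counts than RPS27 in every control library and more in every treated one, before any correction for length. The log2 difference of the ratios was 1.61, with an exact two-sided permutation p of 0.1, the smallest that 3 libraries against 3 can give, and 0.12 adjusted over the 6 ratios computed.

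RPL22L1 (ENSG00000163584, chromosome 3, 170864875 to 170870483, minus strand) is the paralogue of RPL22, and in mice RPL22 is known to repress it. It had 26.8, 22.8 and 20.6 CPM in treated libraries, against 35.8, 40.3 and 37.95 CPM in control libraries. The groups were well apart, and the log2 change was -0.70 (SE 0.083, adjusted p = 4.51e-11). RPL22 itself had 209, 200.4 and 196 CPM in treated libraries, against 223, 243 and 229 CPM in control libraries, a log2 change of -0.20 (SE 0.048, adjusted p = 2.81e-04) that was not called with total counts. RPL22L1 counts were 0.128, 0.114 and 0.105 of those of RPL22 in treated libraries, against 0.161, 0.166 and 0.166 in control libraries. Every treated ratio was lower, by a log2 difference of -0.51.

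RPL26L1 and RPL26 went opposite ways. RPL26L1 had 34.5, 35.4 and 30.4 CPM in treated libraries, against 44.0, 41.1 and 41.8 CPM in control libraries, a log2 change of -0.34 (SE 0.073, adjusted p = 4.87e-05). RPL26, a protein near the tunnel exit, had 54.3, 45.4 and 39.8 CPM in treated libraries, against 36.1, 39.8 and 40.6 CPM in control libraries. Its groups overlapped, and its log2 change of 0.26 (SE 0.077, adjusted p = 0.00261) was 0.13 without the first treated library, where it lost its call (adjusted p = 0.158). The ratio of RPL26L1 to RPL26 was 0.636, 0.780 and 0.764 in treated libraries, against 1.22, 1.03 and 1.03 in control libraries.

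RPL39L, known mainly from testis, had 37.4, 39.2 and 32.6 CPM in treated libraries, against 29.2, 29.8 and 29.5 CPM in control libraries, a log2 change of 0.30 (SE 0.077, adjusted p = 5.53e-04). RPL39 had a log2 difference of 0.02 (SE 0.057). RPL7L1, which acts in assembly of the large subunit, had 285, 275 and 278 CPM in treated libraries and 319 CPM in each control library, a log2 change of -0.19 (SE 0.046, adjusted p = 2.43e-04) that was not called with total counts. The ratios of RPL39L to RPL39 and of RPL7L1 to RPL7 differed by 0.28 and -0.25 on the log2 scale, without overlap of the groups. For these 4 pairs, as for RPS27L, the exact permutation p was 0.1, or 0.12 adjusted. RPL3L, the paralogue of heart and skeletal muscle, had 12 counts over the 3 treated libraries and 8 over the 3 controls, and RPL10L, known from testis, 2 in treated and 0 in control libraries, which is too few to test. The ratio of RPL3L to RPL3 gave an exact permutation p of 0.2. Over aligned coding sequence of the GENCODE v29 transcripts, RPS27L was identical to RPS27 at 77.8% of 252 bases, RPL26L1 to RPL26 at 84.1%, RPL39L to RPL39 at 94.8% of 153 bases and RPL7L1 to RPL7 at 55.5%, while RPL22L1 was not aligned. Counts of copies this alike are uncertain, since the sources used here do not give the treatment of reads that map to several places.

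**Figure D4:**
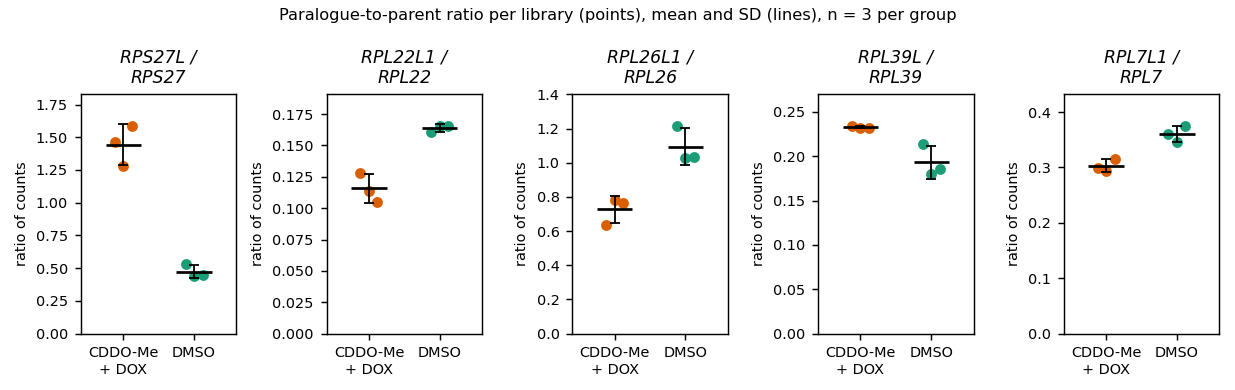
The ratio of a paralogue's counts to those of its parent gene (y axis, from 0, not corrected for length) is plotted per library, treated on the left and DMSO on the right, with mean and SD of 3 libraries as lines. The RPS27L to RPS27 ratio is 1.28 to 1.59 in treated and 0.442 to 0.531 in control libraries, the ratio of RPL39L to RPL39 is also higher in treated libraries, and the other 3 ratios are lower. RPL3L is not drawn because of its low counts.

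Core gene counts made up 3.60%, 3.57% and 3.43% of all counts in treated libraries, against 3.30%, 3.42% and 3.18% in control libraries. The lowest treated library lay just above the highest control, with means of 3.54 ± 0.0930% in treated and 3.30 ± 0.121% in control libraries (SD, n = 3 each; exact permutation p = 0.1, two-sided). The direction turned when counts were taken as a percent of the TMM-scaled library size, with a difference of -0.0611 percentage points and an exact permutation p of 0.6. The ratio of small to large subunit counts, which needs no scaling, was 0.644, 0.631 and 0.640 in treated libraries, against 0.623, 0.624 and 0.617 in control libraries. All treated libraries were higher, and the exact permutation p was again 0.1. Named ribosomal protein pseudogenes held 1.49 ± 0.0522% of member plus pseudogene counts in treated and 1.43 ± 0.0155% in control libraries (exact permutation p = 0.3). In bulk RNA a difference in the cells present and one in RNA per cell cannot be told apart.

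Per kilobase of the exon length given in the table, the median level of the core genes was 113 CPM, with quartiles of 50.9 and 212. RPS2, RPS12 and RPL8 were highest, at 693, 557 and 486 CPM per kilobase over all libraries, and RPS29, RPL36A and RPS10 lowest, at 3.27, 2.19 and 1.62. The highest level was 427 times the lowest. Part of this order follows the length used: the table's length of RPS29 is 9845 bases, while the median length of its GENCODE v29 transcripts is 588 bases. With median transcript lengths the median level was 509 CPM per kilobase, RPLP0 was first, and RPL36A and RPS10 were still last. RPS10, an mRNA entry protein, shares 39.4% of its exon bases with the readthrough gene RPS10-NUDT3, which itself had 0 or 1 counts in each library, and RPL17 shares 35.3% with RPL17-C18orf32, which had 0 to 2. The low RPS10 level of 3.69 ± 0.588 CPM in treated and 3.97 ± 0.698 CPM in control libraries is therefore uncertain.

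The 46 core genes with the TOP form at a listed start included 10 higher and 17 lower (median log2 change -0.03). The 16 with another form included 1 higher and 6 lower, with a median of -0.05. Calls made up 58.7% of the 46 and 43.8% of the 16, against 63.5% of all genes tested. The medians lay close together. RPS4X, shown above with no C at the listed start base, was the only one of the 16 called higher. RPS26, also shown above, was among the 6 called lower. The split rests on the listed start base, and a tract that begins some bases away from it is not counted. RPS4X, the X-linked copy of RPS4, had 1031, 1038 and 1025 CPM in treated libraries, against 907, 887 and 878 CPM in control libraries, a log2 change of 0.21 (SE 0.044).

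Other ribosomal proteins lie outside the symbol rule because of their names. FAU, which encodes RPS30 fused to a ubiquitin-like protein, had 197, 205 and 190.4 CPM in treated libraries, against 169.8, 172 and 155 CPM in control libraries, and rose by 0.25 on the log2 scale (SE 0.050, adjusted p = 1.15e-05). RACK1, a scaffold on the head of the small subunit, rose by 0.14 (SE 0.046). RPL36AL had a log2 difference of -0.08 (SE 0.063) and did not pass. The calls of FAU and RACK1 held under all 4 library scalings, though a higher call is easier to keep under the upward shifts described above.

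Among 21 genes of translation factors and other known TOP mRNAs, 20 were tested, and 3 were higher and 10 lower. Their median was -0.08, and the calls were 65.0% of those tested, near the 63.5% of all genes tested. With total counts 8 were higher and 6 lower and the median was 0.04. HNRNPA1, a splicing factor, had the largest decrease, at -0.63 (SE 0.048), followed by EIF3E, a subunit of initiation factor eIF3, at -0.49 (SE 0.046) and NPM1, the nucleolar assembly chaperone, at -0.43 (SE 0.044). TPT1, which encodes the growth protein TCTP, was higher by 0.36 (SE 0.046). Of 13 snoRNA host genes, 3 were higher and 4 lower with a median of 0.09, against 7 and 3 with total counts. With TMM 53.8% of these host genes were called, below the share over all genes. TAF1D had a log2 change of -0.67 (SE 0.062) and SNHG16 one of -0.45 (SE 0.065), and ZFAS1 was higher by 0.52 (SE 0.072).

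The regulators of TOP mRNA translation had log2 changes from -0.78 to 2.75. Of 19, 7 were higher and 10 lower, against 7 and 6 with total counts. With TMM 89.5% of the 19 were called, against 63.5% of all genes tested. The list was chosen with earlier results of these data known. The inhibitors of mTORC1 signalling SESN2, SESN1 and DDIT4 rose most. SESN2 had 221, 219 and 229 CPM in treated libraries, against 34.8, 30.6 and 33.9 CPM in control libraries, a log2 change of 2.75 (SE 0.058). SESN1 rose by 2.12 (SE 0.083) and DDIT4 by 1.72 (SE 0.087). EIF4E, the cap-binding protein, had a log2 change of -0.78 (SE 0.066), and RPS6KB1, an S6 kinase, one of -0.50 (SE 0.068). LARP1 had a log2 change of -0.15 (SE 0.047), but lost its call with upper-quartile scaling (-0.10, adjusted p = 0.0617) or total counts (-0.02, adjusted p = 0.658). MTOR had a difference of -0.05 (SE 0.049) that did not pass. These are mRNA levels, and translation was not measured.

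Of 19 chaperones of ribosomal proteins and late assembly factors, 6 were higher and 8 lower with a median of -0.06. Total counts gave 8 and 6 and a median of 0.07. With TMM 73.7% of the 19 were called, against 63.5% of all genes tested. ZNF622, a late factor of the large subunit, was higher by 0.73 (SE 0.068). HEATR3, which imports RPL5, had a log2 change of -0.71 (SE 0.063), and GRWD1, the chaperone of RPL3, one of -0.49 (SE 0.055). Of 14 genes of ribosome rescue and stalling, 4 were higher and 3 lower, against 7 and 3 with total counts. HBS1L and MAP3K20, the kinase ZAK that senses collided ribosomes, had log2 changes of -0.74 (SE 0.055) and -0.63 (SE 0.048), while PELO, the partner of HBS1L, was higher by 0.56 (SE 0.058). Of 9 candidate transcription factors of ribosomal protein genes, 8 were tested, with 4 higher and 4 lower. All 8 were thus called, where 63.5% of all genes tested were. MYC had 41.8, 38.2 and 38.4 CPM in treated libraries, against 76.1, 74.2 and 80.4 CPM in control libraries, a log2 change of -0.96 (SE 0.063). GABPB1, a subunit of GABP, had a log2 change of -0.53 (SE 0.071), and E2F1 was higher by 0.45 (SE 0.051).

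The libraries held 17150259 to 20193957 counts in genes. All 6 genes known to respond to either drug were higher, from GCLM at 1.24 to GDF15 at 6.22 on the log2 scale. These 6 were listed with earlier results of these data known, and 32.3% of all genes tested were called higher. Of 11 cardiomyocyte markers, 10 had at most 16 counts in any library, among them TNNI3 at 0 in every library, and only GATA4 was tested (log2 change -0.33, SE 0.11). Its call was lost with total counts (adjusted p = 0.0959), without the third treated library (0.0689) and without the first control (0.0614). Apart from GATA4, these heart muscle mRNAs were thus at or near 0. Of 10 fibroblast markers, none was at 0 and 9 were called lower in treated libraries, where 31.2% of all genes tested were. Their summed level was 7382 to 7803 CPM in treated and 16254 to 17622 CPM in control libraries. Whether this has a part in the changes of ribosomal protein genes was not tested.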

How the data were processed

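Polyadenylated RNA of AC16 cells was sequenced in 3 treated and 3 control libraries, without strand information, according to the labels. The deposited values are whole-number counts for 58299 Ensembl genes, in a table that also holds exon coordinates and lengths. The hg38 (GRCh38) build, featureCounts of Subread, STAR and SAMtools appear in the submitters' processing notes with no versions. How featureCounts was set is not stated in the labels. Depth was 17150259 to 20193957 counts, and replicate pairs differed by more than sampling noise (chi-square over degrees of freedom 3.00 to 4.01 over all genes and 11.8 to 23.7 over the members). At a given relative spread this measure grows with a gene's counts, so the ranges do not show that members varied more than other genes.

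Of the identifiers, 58179 were found in GENCODE v29, which gave symbols and gene types. Genes were filtered with filterByExpr (minimum count 10), scaled by TMM and tested in edgeR 4.0.16 under R 4.3.3 by its quasi-likelihood F test (glmQLFit, glmQLFTest). P-values were adjusted by Benjamini-Hochberg over all 15575 genes, with calls at 0.05. Standard errors are the absolute log2 change divided by the root of F. The common biological coefficient of variation was 4.82%. Shares and within-library ratios were compared by exact two-sided permutation tests (scipy 1.17.1), which cannot give less than 0.1 with 3 libraries against 3. Exon overlap used bedtools 2.31.1. Promoter sequences came from RefSeq (GRCh38.p14), and a protein comparison was not made here. The edgeR script was tested on simulated data.

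Members, gene lists and tests were chosen with earlier results of these data known. Named were the 5 core genes that increased most and the 5 that decreased most, the 3 highest and 3 lowest core genes per kilobase, all paralogue-like members, 17 fixed members, the ribosomal proteins outside the symbol rule and 3 genes with the largest change of each list. RPL12, RPL18, RPS4X, RPS7, RPL39, RPL7, RPL26, TPT1, EIF4E, RPS6KB1, LARP1 and MTOR, and members named in lists of calls or beside a limit, were chosen after their values were seen. Values of a few genes are not reported here. Alternatives were other scalings and filters, DESeq2 1.42.0, limma-voom 3.58.1, glmTreat, a replicate block, and each library left out.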

Additional observations from a re-analysis of the deposited data

How the results depend on the processing

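All alternatives rest on 3 libraries a group, and the small core changes sit near the size that scaling moves. With upper-quartile scaling 29 members were called higher and 19 lower, and with total counts 36 and 9, with a core median of 0.10. Total counts turned the direction of 22 members, of which 7 were called in one of the fits: RPL11 (0.12), RPS14 (0.11), RPL6 (0.11), RPL13 (0.0139), RPL23 (0.0166), RPL29 (7.85e-04) and RPL35A (1.81e-04). As percents of the TMM-scaled library size, treated minus control differences turned for core genes (-0.0611), small subunit (-0.00224), large subunit (-0.0589) and stalk genes (-0.00657). Why scaling moved these values was not tested. A minimum of 1.2-fold (glmTreat) left 6348 genes (2948 lower), 7 members (4 higher and 3 lower) and 32 list genes, since it asks for a larger change. Transcript lengths gave a median core level of 509 CPM per kilobase. Leaving out each library gave 12 to 19 members higher and 22 to 34 lower. DESeq2 called 15 members higher and 28 lower, limma-voom 20 and 32. At an adjusted p of 0.01, 10 members lost their call, and 4 higher and 3 lower members kept it under every alternative. Same-numbered libraries did not deviate together (correlations -0.13, -0.11 and -0.04 over 9639 genes), so the numbers are not taken as pairs. With the replicate number as a block, 9653 genes and 45 members (15 higher and 30 lower) were called.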

Other observations

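Short mRNAs varied more between replicates. The 24 core genes with a median transcript length under 600 bases had a median coefficient of variation of 5.56% in treated and 5.41% in control libraries, against 3.88% and 4.25% for the 53 longer ones. In the short genes the median log2 deviation from the group mean was 0.05 in the first and -0.08 in the third treated library, and -0.07 in the first and 0.07 in the second control library. The median log2 change was -0.12 in the 24 short genes and -0.01 in the longer ones. Across the 77 core genes, which share libraries and scaling, the log2 change had a Pearson r of -0.02 with the log2 level and -0.11 with transcript length (Spearman rho 0.07 and -0.01), given as descriptions.

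Of 1144 named ribosomal protein pseudogenes in the table, 537 had a count. They held over 5% of the joint counts of gene and pseudogenes for 6 members: 27.5% for RPS10, 23.7% for RPL23A, 18.3% for RPL9, 10.4% for RPL41, 6.81% for RPL26 and 6.16% for RPS2.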
